A study of Homo sapiens with 4 samples.

Results

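The 10 genes described here encode the BCL2 family proteins that set whether mitochondria commit a cell to apoptosis: the anti-apoptotic BCL2, BCL2L1 and MCL1, the effectors BAX and BAK1, and the BH3-only genes BCL2L11, BMF, BID, BBC3 and PMAIP1. They were taken as a named list and matched by Ensembl identifier, and all 10 were found among the 60721 genes of the count table and all 10 were among the 16137 genes tested. RNA was sequenced from Hs578T cells, an established human breast carcinoma line, in which every sample was co-transfected with GFP. The SCR group received a scrambled, non-targeting RNA and the siTLN1 group an siRNA against TLN1, each at 1.6 µM, and RNA was collected 48 h later, with 2 libraries per group made as biological replicates. The untransfected line was not analysed here, so transfection and GFP are shared by both groups. The libraries of each group are named a and b after a number that recurs in the count table's headers, which is not the replicate number of the labels.

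In a living cell the anti-apoptotic proteins hold BAX and BAK1 in check. BH3-only proteins are the stress sensors of the family: each binds the anti-apoptotic proteins, and some also bind BAX and BAK1 directly, after which the effectors open pores in the outer mitochondrial membrane and release cytochrome c. Anoikis is apoptosis of cells that lose contact with the matrix, and BMF and BCL2L11 (BIM) are the BH3-only proteins best known for it, BMF being held at the actin cytoskeleton and BIM at microtubules through dynein light chains in attached cells. Talin-1, the TLN1 product, couples integrins to actin, and the comparison asked what its depletion did to the transcripts of these genes.

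Total counts lay between 31854322 and 46353297 per library. TLN1, the targeted gene, fell from 868 and 874 CPM (counts in 1e6 of the library, TMM-scaled) under SCR to 51.9 and 44.8 CPM under siTLN1, with a log2 fold change of −4.17 (SE 0.11; edgeR quasi-likelihood test, adjusted p 3.89e-13). The labels call the cells epithelial. Of 7 epithelial markers KRT18 and KRT14 averaged 117 and 118 CPM in SCR and KRT8 18.9 CPM, whereas CDH1 averaged 0.463 CPM and EPCAM, KRT19 and KRT5 had at most 6 counts in any library. The 7 together summed to 230 to 279 CPM in SCR and 197 to 210 CPM in siTLN1, KRT14 having fallen (log2 fold change −0.81, edgeR adjusted p 9.77e-05). Of 3 mesenchymal markers, which summed to 27997 to 30678 CPM in SCR and 31221 to 36548 CPM in siTLN1, CDH2 fell (−0.89, adjusted p 2.45e-05). VIM averaged 3860 CPM in SCR and 3922 CPM in siTLN1, and FN1, the most abundant, 24926 and 29665 CPM (log2 fold change 0.25, adjusted p 0.343). The part of these shifts in the results was not tested. Leukocyte markers summed to at most 0.912 CPM and endothelial ones to at most 4.72 CPM in any library, with CD3E at 0 counts throughout.

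Of the 10 genes, 2 passed the threshold of an adjusted p under 0.05 and both were BH3-only genes that rose in siTLN1: BMF and PMAIP1. Over all tested genes 6.07% passed in either direction, 2.30% as higher and 3.77% as lower. The sequences below are shown because these are the 2 genes that rose together and because BMF carries a short word whose other carriers were more often lower in siTLN1. The first 2 are promoters of 300 bases, from 250 before to 50 after a RefSeq start site (GRCh38.p14, written 5′ to 3′ on the gene's strand). BMF has 2 start sites in that table, and the more upstream is shown (chr15:40108830-40109129, minus strand). In it capitals mark ATTGG, the CCAAT box read on the opposite strand. In PMAIP1 (chr18:59899746-59900045, plus strand) capitals mark ACGTCA, the core of a cyclic AMP response element (TGACGT) read on the opposite strand. The last sequence is the only copy of the word GACAACA in the 3′ UTR of the longest coding transcript of BMF (GENCODE 29, GRCh38, chr15:40090404-40090410, minus strand, exonic), with the word in capitals.
BMF promoter: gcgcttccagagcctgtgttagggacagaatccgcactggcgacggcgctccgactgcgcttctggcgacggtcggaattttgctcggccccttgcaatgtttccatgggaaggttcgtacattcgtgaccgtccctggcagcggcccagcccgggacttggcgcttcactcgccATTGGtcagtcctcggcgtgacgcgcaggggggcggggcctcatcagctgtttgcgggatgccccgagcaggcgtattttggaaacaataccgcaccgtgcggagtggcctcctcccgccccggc
PMAIP1 promoter: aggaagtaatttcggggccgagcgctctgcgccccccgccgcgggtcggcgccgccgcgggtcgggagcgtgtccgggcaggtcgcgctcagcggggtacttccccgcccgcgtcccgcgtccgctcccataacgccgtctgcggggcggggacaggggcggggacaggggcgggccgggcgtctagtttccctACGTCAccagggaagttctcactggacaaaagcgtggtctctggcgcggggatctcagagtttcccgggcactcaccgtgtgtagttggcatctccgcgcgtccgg
BMF 3′ UTR site: atgtgagaaaaGACAACAttggtgctaac

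BMF, the BH3-only protein sequestered at the actin cytoskeleton in attached cells, had the largest fold change of the 10. From 202 and 224 reads under SCR, BMF (ENSG00000104081.14, minus strand of chromosome 15 from 40087890 to 40108892 in GRCh38) reached 406 and 449 under siTLN1. After scaling this was 6.35 and 6.43 CPM in SCR against 11.2 and 9.55 CPM in siTLN1, so that both siTLN1 libraries lay above both SCR libraries and the control libraries nearly coincided. The fold change was 1.61, with a 95% confidence interval of 1.32 to 1.98 (log2 fold change 0.69, SE 0.14, edgeR quasi-likelihood test with Benjamini-Hochberg adjustment over all tested genes, adjusted p 0.0063). Without siTLN1 library a the log2 fold change was 0.58 and the call was lost (adjusted p 0.108), the lone siTLN1 library being taken to vary like the others. BMF shares 8.46% of its exon bases with BMF-AS1 on the opposite strand. Those bases are all of BMF-AS1, and with no strand option reads there could be given to neither gene, so its 0 counts in each library carry no information on the overlap.

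PMAIP1 encodes NOXA, a BH3-only protein that binds and antagonises MCL1. PMAIP1 (ENSG00000141682.11; chromosome 18, 59899948 to 59904306, plus strand) was at 21.7 and 22.8 CPM in SCR and at 31.4 and 30.4 CPM in siTLN1, from 689 and 795 raw counts against 1142 and 1428. The spread within each group was small beside the gap between them. It rose 1.39-fold, with a 95% confidence interval of 1.19 to 1.61 (log2 fold change 0.47, SE 0.10, edgeR adjusted p 0.0103). As for BMF, the call was lost without siTLN1 library a, at a log2 fold change of 0.45 (adjusted p 0.121). No exon base of PMAIP1 is shared with another gene.

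**Figure D1:**
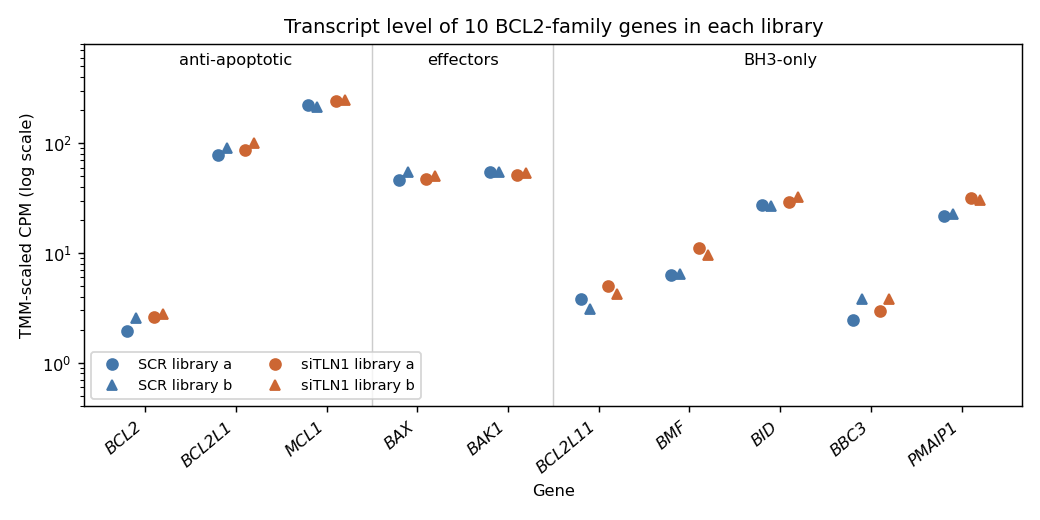
Transcript level of each of the 10 genes in each library, as TMM-scaled CPM on a log axis. Blue points are SCR and orange points siTLN1, circles are libraries a and triangles libraries b. The siTLN1 points of BMF (11.2 and 9.55 CPM) and PMAIP1 (31.4 and 30.4 CPM) lie above both of their SCR points, and the points of BAX and BAK1 lie close together.

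The other 3 BH3-only genes did not pass. BCL2L11 (ENSG00000153094.23; chromosome 2, 111119378 to 111168445, plus strand), which encodes BIM, was at 3.78 and 3.10 CPM in SCR and 5.03 and 4.21 CPM in siTLN1. Its groups did not overlap, it had 108 to 198 raw counts per library and its error was wide: the log2 fold change was 0.42 with a 95% interval of 0.047 to 0.80 and an edgeR adjusted p of 0.189 (unadjusted 0.0297). Of its exon bases 10.9% are shared with MIR4435-2HG on the opposite strand, a gene with 2272 to 3098 counts per library, so the level of BCL2L11 is uncertain. BID, which is cleaved by caspase-8 and carries death receptor signals to mitochondria, was at 27.2 and 27.0 CPM in SCR and 29.4 and 32.1 CPM in siTLN1. BID (ENSG00000015475.18; chromosome 22, 17734138 to 17774770, minus strand) had a log2 fold change of 0.18 (95% interval −0.033 to 0.40, adjusted p 0.346). BBC3 encodes PUMA, a BH3-only protein that binds all the anti-apoptotic members. Its libraries overlapped, with 2.45 and 3.79 CPM in SCR and 2.94 and 3.83 CPM in siTLN1, and each b library exceeded both a libraries. BBC3 (ENSG00000105327.17; chromosome 19, 47220822 to 47232766, minus strand) had a log2 fold change of 0.12 with a 95% interval of −0.35 to 0.59 (adjusted p 0.830). Its sign turned when a library was left out, to −0.15 with SCR library a omitted and −0.092 with siTLN1 library b omitted.

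None of the 3 anti-apoptotic genes passed. MCL1, a short-lived protein that is the main partner of NOXA, was the most abundant of the 10, at 224 and 213 CPM in SCR and 242 and 247 CPM in siTLN1. MCL1 (ENSG00000143384.13; chromosome 1, 150574551 to 150579738, minus strand) had a log2 fold change of 0.16 with a 95% interval of −0.029 to 0.36 (edgeR adjusted p 0.345), which allows at most a 1.28-fold difference upward. BCL2L1 encodes BCL-XL and its truncated pro-apoptotic splice form BCL-XS, which gene counts do not separate. BCL2L1 (ENSG00000171552.13; chromosome 20, 31664452 to 31723989, minus strand) was at 77.8 and 91.0 CPM in SCR and 87.1 and 100.4 CPM in siTLN1, groups that overlap, with a log2 fold change of 0.15 (95% interval −0.071 to 0.38, adjusted p 0.469). The antisense gene ABALON covers 43.0% of its exon bases, so reads in that stretch could have gone to neither gene. ABALON itself had 29 to 71 counts per library. BCL2, the founding member of the family, was the scarcest, at 1.95 and 2.56 CPM in SCR and 2.64 and 2.77 CPM in siTLN1, from 62 to 130 raw counts. BCL2 (ENSG00000171791.13; chromosome 18, 63123346 to 63320128, minus strand) had a log2 fold change of 0.26 with a 95% interval of −0.18 to 0.69 (adjusted p 0.539), so a 1.62-fold higher level lies inside its error.

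The effectors were the 2 members with fold changes under 1, and neither passed. BAX (ENSG00000087088.20; chromosome 19, 48954815 to 48961798, plus strand) was at 46.3 and 54.9 CPM in SCR and 47.2 and 49.8 CPM in siTLN1, both siTLN1 libraries lying between the SCR libraries. Its log2 fold change was −0.06 (95% interval −0.28 to 0.16, edgeR adjusted p 0.812), and 0.066 without SCR library b. BAK1 (ENSG00000030110.13; chromosome 6, 33572547 to 33580293, minus strand) was at 54.7 and 54.2 CPM in SCR and 51.2 and 53.2 CPM in siTLN1, with a log2 fold change of −0.06 (95% interval −0.26 to 0.14, adjusted p 0.801). The intervals leave room for at most a 1.12-fold higher or a 0.822-fold level of BAX, and a 1.10-fold higher or a 0.836-fold level of BAK1. BAK1 has annotated pseudogenes, and reads shared with them could have been left uncounted.

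**Figure D2:**
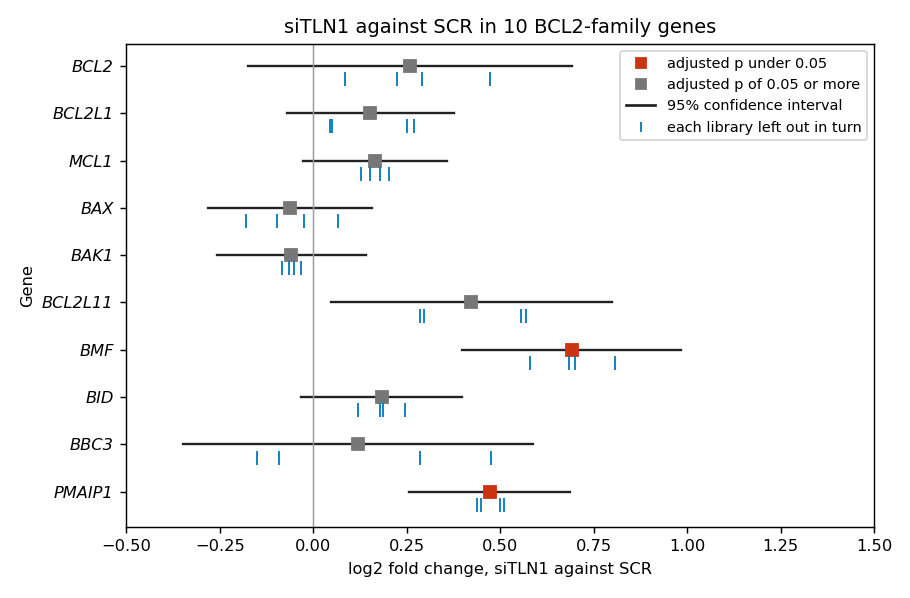
Log2 fold change of siTLN1 against SCR for each of the 10 genes (squares), with the 95% confidence interval of the edgeR fit (lines) and the values obtained with each library left out in turn (blue ticks). Red squares mark an adjusted p under 0.05, which BMF (0.69) and PMAIP1 (0.47) reached, and the ticks of BBC3 and BAX fall on both sides of 0.

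Counted over these genes, 8 of 10 log2 fold changes were above 0, with a median of 0.17 against 0.0033 over all tested genes. The other tested BCL2 relatives went the other way, with 1 above 0, 6 below and a median of −0.19. Within the 10 genes the median was 0.42 for the 5 BH3-only genes, 0.16 for the 3 anti-apoptotic genes and −0.06 for the 2 effectors. In 6 of the 10 genes both siTLN1 libraries exceeded both SCR libraries, a pattern found in 23.9% of all tested genes. BAK1 was the 1 gene of the 10 with both siTLN1 libraries below both SCR libraries, a pattern found in 24.6% of all tested genes. Libraries overlapped in BCL2L1, BAX and BBC3. These counts describe a chosen list, and no test was made of the list as such.

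Levels of different genes can be compared only per length, so each count was also expressed as RPKM (CPM divided by the kilobases of annotated exon). In SCR the order was MCL1 (49.9 RPKM, mean), BCL2L1 (25.5), BAK1 (24.6), BAX (19.6), PMAIP1 (9.96), BID (6.10), BMF (1.17), BBC3 (0.982), BCL2L11 (0.517) and BCL2 (0.191), all in RPKM. The order was the same in siTLN1, where MCL1 was at 55.9, PMAIP1 at 13.8 and BMF at 1.90 RPKM. In SCR the libraries of BCL2L1 overlapped those of BAK1 and the libraries of BBC3 overlapped those of BMF, so these neighbours were not separated by more than their spread. In siTLN1 the libraries of no 2 neighbours overlapped. The exon length used counts every annotated exon, which lowers the RPKM of genes with long rarely used exons. Any reads lost where ABALON overlaps BCL2L1 would lower its RPKM too. The order, and the sums, shares and ratio below that rest on BCL2L1, share this uncertainty.

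The RPKM sums by role show how the transcript pool of these 10 genes was divided. The 3 anti-apoptotic genes summed to 74.8 and 76.3 RPKM in SCR and 81.8 and 87.1 RPKM in siTLN1. MCL1 alone made up between 34.5% and 37.7% of the summed RPKM of the 10 genes in each library. The effectors summed to 42.6 and 45.7 RPKM in SCR against 41.4 and 43.3 RPKM in siTLN1, groups that overlap. The BH3-only genes among the 10 summed to 18.3 and 19.1 RPKM in SCR against 24.4 and 24.4 RPKM in siTLN1. For these genes the gap was far wider than the difference between replicates. Most of that sum was PMAIP1, at 9.70 and 10.2 RPKM in SCR and 14.0 and 13.6 RPKM in siTLN1. The ratio of BH3-only to anti-apoptotic RPKM among the 10 genes was 0.245 and 0.251 under SCR and 0.298 and 0.280 under siTLN1, given as a description without a test. It leaves out BAD, another BH3-only gene, and BCL2L2, another anti-apoptotic gene. BAD averaged 16.41 RPKM in SCR and 13.95 RPKM in siTLN1, with overlapping libraries, and BCL2L2 averaged 11.19 and 9.17 RPKM. Neither passed. The higher ratio in siTLN1 therefore holds for the 10 genes, and whether it holds for a wider list was not tested. In bulk RNA a change in the mix of cells and a change within each cell cannot be told apart.

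**Figure D3:**
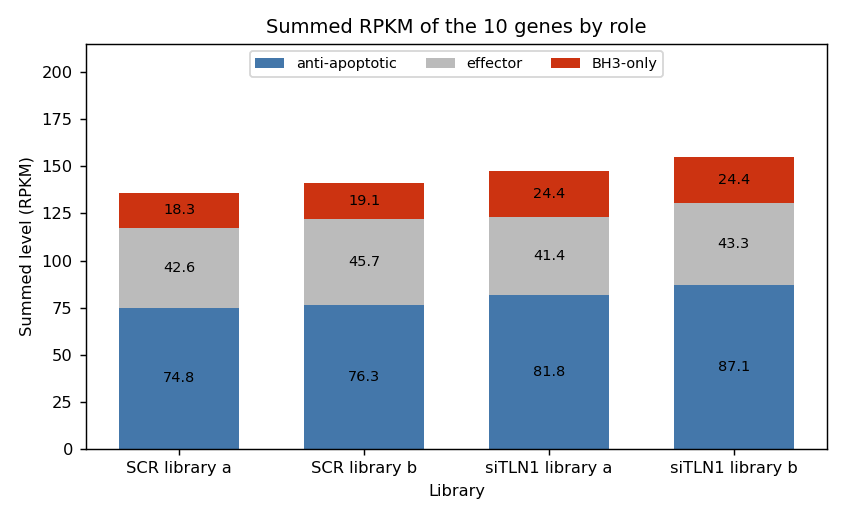
Summed RPKM of the anti-apoptotic, effector and BH3-only genes among the 10 in each library, stacked, with each sum printed in its bar. BAD and BCL2L2 are not included. The BH3-only segment is 18.3 and 19.1 RPKM in the SCR libraries and 24.4 RPKM in each siTLN1 library, and the anti-apoptotic segment is the largest in all 4.

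The sequences of the family were then searched. Of the members, 9 have a promoter in the RefSeq table, which lists 15 start sites for them. PMAIP1 alone held the cyclic AMP response element core TGACGT, in 1 of the 15 windows. That share is no higher than the 7.98% of 35116 promoters of the same length searched on both strands. BCL2L11 alone held the FOXO motif GTAAACA, also in 1 of the 15 windows (3.42% of all promoters). The CCAAT box (CCAAT) was in 5 of the 15 windows, the upstream window of BMF among them, and in 34.6% of all promoters. The GC box GGGCGG was in 10 of the 15 windows, PMAIP1 (4 copies) and the upstream window of BMF (2 copies) among them, and in 45.0% of all promoters. Those 10 include overlapping windows of BID that share copies, so they are not 10 separate promoters. The E-box CACGTG was in 4 of the 15 windows and in 7.26% of all promoters. Those windows were 1 of BAX, 1 of BBC3 and a pair of overlapping windows of BID that share a single site, and neither BMF nor PMAIP1 held it. The motifs were chosen with the promoter sequences in view, and a match is a description and not a binding site.

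The word GACAACA came from an earlier result on these data, so its link with lower transcripts is no independent finding here. Among tested protein-coding genes, TLN1 left out, the 941 with the word in the 3′ UTR had a median log2 fold change of −0.098 and 16.8% of them passed as lower, against a median of 0.013 and 3.41% among the 11918 without it. Of the 10 family members BMF was the 1 with the word in its 3′ UTR, in the site printed above, and 2 of 9 coding transcripts of BMF hold it. BMF rose, as 1 of 19 genes (2.02%) with the word that passed as higher, beside 2.69% of the genes without it. BCL2 and BID hold the word in coding sequence only, and the other 7 members hold it in neither region of the transcript examined. The sequence of the siRNA is not given in the sources used here, and the part of the word in any of these values was not tested.

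The remaining genes of the pathway were read from 6 lists of 80 genes, of which 73 were tested, 6 passed (2 higher, 4 lower) and the median log2 fold change was 0.0053, beside 6.07% passing (2.30% higher, 3.77% lower) and a median of 0.0033 over all tested genes. Of 12 other BCL2 relatives 7 were tested, 1 with a log2 fold change above 0 and 6 below (median −0.19), and BNIP3L passed. BNIP3L, a mitophagy receptor with a BH3-like stretch, fell from 220 and 228 CPM in SCR to 122 and 145 CPM in siTLN1 (log2 fold change −0.75, SE 0.10, edgeR adjusted p 0.000237). Its transcript lacks GACAACA in the 3′ UTR and coding sequence, as do those of AKT1, CAV1, DAPK2, SIK1 and PTK2 below. The cause of the fall was not tested. BCL2L2, which encodes the anti-apoptotic BCL-W, was at 46.0 and 47.7 CPM in SCR and 37.1 and 39.7 CPM in siTLN1 without passing (log2 fold change −0.29, adjusted p 0.0959). The 5 relatives left untested, BCL2A1, BCL2L10, BIK, HRK and BCL2L14, had between 0 and 9 counts in every library.

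Downstream of the mitochondria, none of the 19 execution genes passed, and their median log2 fold change was 0.10. APAF1, the scaffold of the apoptosome, had the highest (0.36) and was at 18.5 and 16.2 CPM in SCR and 23.3 and 21.3 CPM in siTLN1 (adjusted p 0.0697). None of the 10 tested death receptor genes passed either, with a median of 0.027. CASP8, the protease that cleaves BID, was at 37.7 and 38.9 CPM in SCR and 48.1 and 46.4 CPM in siTLN1 (log2 fold change 0.30, adjusted p 0.0742). APAF1 and CASP8 are named after their values were seen.

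Of 24 genes for survival signalling from adhesions and for anoikis, 5 passed, 3 lower and 2 higher, where 3.77% and 2.30% of all tested genes did. Fewer transcripts were found for AKT1, a kinase that conveys integrin and growth factor survival signals (log2 fold change −0.42, edgeR adjusted p 0.0117). The related AKT2 did not pass (−0.03, 0.902). Also lower were CAV1, the caveolar coat protein (−0.39, 0.0270), and DAPK2, a death-associated kinase (−0.96, 0.0356). SIK1, a kinase tied to anoikis, was higher (0.72, 0.0327), and so was PTK2, which encodes focal adhesion kinase (0.32, 0.0433). PTK2 lies outside the rule for named genes and was added after its values were seen. CAV1 was the abundant one, at 1526 and 1471 CPM in SCR and 1145 and 1138 CPM in siTLN1, whereas DAPK2 was at 2.14 and 1.81 CPM in SCR and 1.21 and 0.851 CPM in siTLN1. Each of the 5 lost its call without siTLN1 library a (adjusted p 0.0812 for AKT1, 0.152 for CAV1, 0.0513 for DAPK2, 0.161 for SIK1 and 0.212 for PTK2) and likewise without siTLN1 library b. CAV1 and PTK2 also lost it without either SCR library, DAPK2 without SCR library a and SIK1 without SCR library b. DYNLL1 and DYNLL2, the dynein light chains that hold BIM and BMF in attached cells, did not pass, with log2 fold changes of −0.11 and −0.03 (adjusted p 0.584 and 0.921).

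None of the 8 tested transcription factors of BH3-only genes passed, with a median of 0.022. FOXO3, a factor that binds the promoters of BCL2L11 and BBC3, had a log2 fold change of 0.24 (edgeR adjusted p 0.192). None of 5 genes for turnover of the family's proteins passed, with log2 fold changes from −0.31 (FBXW7, edgeR adjusted p 0.144) to 0.17. Among them were HUWE1, a ubiquitin ligase of MCL1, and USP9X, a deubiquitinase of MCL1, with log2 fold changes of 0.07 and 0.04.

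**Figure D4:**
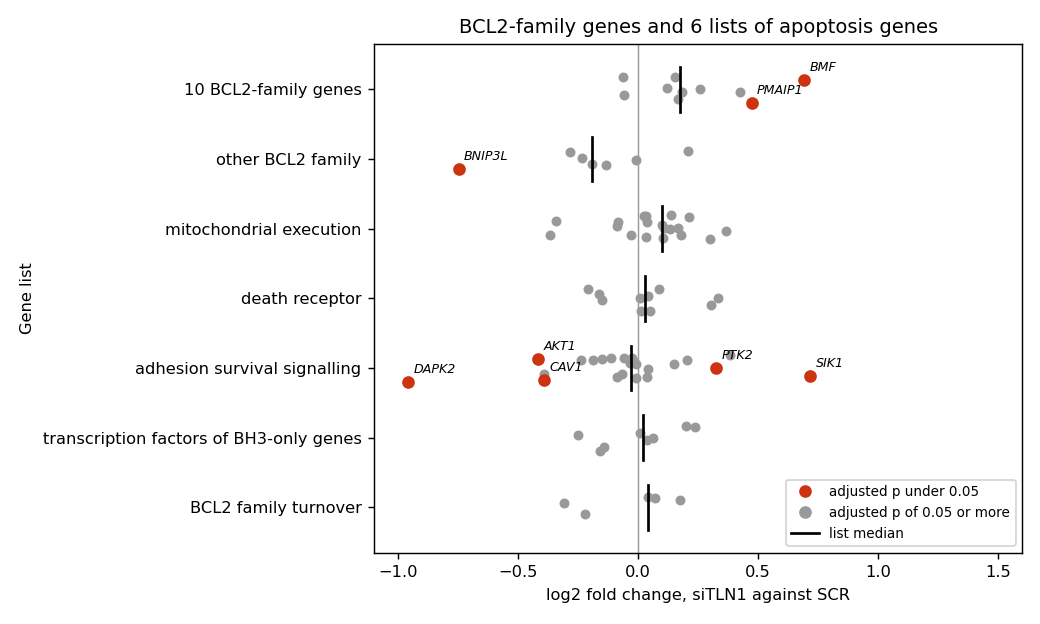
Log2 fold change of siTLN1 against SCR for the 10 BCL2-family genes and for the tested genes of 6 lists, 1 point per gene. Red points passed an adjusted p of 0.05 and are named, and black bars are list medians, which run from −0.19 for the other BCL2 relatives to 0.17 for the 10 genes.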

How the data were processed

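Libraries were polyA-selected and stranded, per the labels' protocols. The authors deposited raw counts, for which featureCounts 2.0.0 had read pairs assigned to GENCODE 33 genes on GRCh38 with neither a strand nor a multi-mapping option, per the file headers. STAR 2.7.9a and edgeR 3.34.1 are named in the submitters' processing notes. The authors also deposited log2 CPM values, whose making is not given in the sources used here, and exon lengths in bases, another column of the count table. Headers of the count columns give the group but no replicate of the labels. The log2 CPM columns carry the labels' replicate numbers.

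Genes passing filterByExpr (minimum count 10, minimum total 15) were compared with edgeR 4.0.16 in R 4.3.3 (TMM scaling, robust glmQLFit in its current method, glmQLFTest) with Benjamini-Hochberg adjustment over all tested genes. SEs and 95% intervals follow from that fit. With 2 libraries per group an exact permutation test of 1 value cannot go below 0.333. CPM and RPKM use the TMM-scaled library sizes. The replicate libraries differed by more than counting noise (chi-square per degree of freedom 13.7 in SCR and 18.5 in siTLN1).

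Symbols were matched for 16085 of 16137 tested genes. The word search read, for each gene, the GENCODE 29 transcript of greatest coding length, a release other than that of the counts. Also tried were RLE scaling, unscaled totals, all genes with a count, genes averaging 10 counts, DESeq2 1.42.0, limma-trend (limma 3.58.1) on the deposited log2 CPM with and without a replicate block, removal of each library's gene-length trend (loess, span 0.3), and each library left out. The members, lists and tests were chosen with earlier results of these data known. By rule, named genes are TLN1, the 10 members and, from each list, up to 4 genes that passed, by smallest p. Tested list genes named outside this rule are BAD, BCL2L2, APAF1, CASP8, PTK2, AKT2, DYNLL1, DYNLL2, FOXO3, FBXW7, HUWE1 and USP9X. Some list genes and 1 list are not reported here. The fits were tested on simulated data. Figures were drawn with matplotlib 3.10.9.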

Additional observations from a re-analysis of the deposited data

How the results depend on the processing

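Under the alternatives with all 4 libraries and no replicate block, BMF and PMAIP1 and no other member passed, and TLN1 kept its call under each alternative, with log2 fold changes from −4.28 to −4.07 when a library was left out. The 980 changed genes, 2 changed members and 6 changed list genes became 1523, 2 and 11 with the gene-length trend removed, and 3645, 4 and 27 with the replicate block, in which MCL1 (log2 fold change 0.16, adjusted p 0.0394) and BCL2L11 (0.42, adjusted p 0.0323) joined BMF and PMAIP1. Over the other alternatives the adjusted p of MCL1 reached 0.723 and that of BCL2L11 0.653. With a library left out the counts ran from 347 to 1116 genes, from 0 to 2 members and from 1 to 7 list genes, the lowest of each without siTLN1 library a. With a library left out the log2 fold change of BAX ran from −0.18 to 0.066 (positive without SCR library b) and that of BBC3 from −0.15 to 0.48 (negative with SCR library a omitted, and at −0.092 with siTLN1 library b omitted). Among the named list genes, SIK1 lost its call with DESeq2, whose own filtering gave DAPK2 no adjusted p, and PTK2 and DAPK2 lost theirs without a filter on low counts. As a check of pairing, the difference of replicate 1 from replicate 2 in SCR was correlated with that in siTLN1 over genes (r = 0.190, or 0.535 among genes of at least 5 CPM). No label says that equal numbers share a preparation and 2 pairs cannot show it, so the block is not used elsewhere. The cause of these differences was not tested. BCL2, BBC3 and BCL2L11 had at most 198 counts in any library, and the part of depth in their errors was not tested.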
